A study of Homo sapiens with 12 samples.

Results

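The 42 genes described here are core interferon-stimulated genes, a set taken by gene symbol from the table of 19919 genes measured by RNA sequencing in the Burkitt lymphoma lines Raji and Daudi. They include the IFIT, OAS, MX, IFITM and PARP families and 25 further genes. Of the 42 genes, 39 had enough counts to be among the 12027 genes tested, and HERC5, HERC6 and EPSTI1 did not. Wild-type Raji was represented by 4 libraries, FBXO11 knockout Raji by 4, wild-type Daudi by 2 and FBXO11 knockout Daudi by 2. FBXO11 picks the substrates of an SCF ubiquitin ligase. The knockout cells carried Cas9 and guide RNA against exon 4 of FBXO11 from a lentiviral vector (LentiCRISPR v2), had been selected with puromycin and had been grown from single cells. The title of each knockout library holds a number of its own, whose meaning the labels do not give. The labels do not say which guide or clone each knockout library came from, or whether libraries of a line share a clone. Nothing in them describes a vector, puromycin or cloning for the wild-type cells, and an effect of the knockout cannot be told apart from one of these steps. No library was labelled as treated with interferon.

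Type I interferon binds the receptor made of IFNAR1 and IFNAR2, whose kinases TYK2 and JAK1 phosphorylate STAT proteins. STAT2 is among those that join IRF9 in a complex, ISGF3, which binds the interferon-stimulated response element (ISRE) in the promoters of interferon-stimulated genes. The products block viral entry, bind or degrade viral RNA, modify proteins and sense nucleic acid, and several parts of the pathway, IRF9 among them, are interferon-stimulated themselves.

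The promoters of these genes give a view of what they share in sequence. RefSeq promoters (GRCh38.p14, 250 bases before to 50 after a start) were found for 35 of the 42 genes and searched on both strands for the ISRE core GAAANNGAAA, where N is any base. At least 1 match was present in 24 of the 35 (68.6%), against 4.38% of all 27305 genes with a promoter of this length. The stretches shown next were picked from genes with a match, to set single, paired and shared matches side by side, and capitals mark the ISRE core in either orientation.
ISG15 (GRCh38.p14 chr1:1013354-1013429, plus strand): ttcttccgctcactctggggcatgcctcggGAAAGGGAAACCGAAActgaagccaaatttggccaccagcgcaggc
IFIT1 (GRCh38.p14 chr10:89392477-89392559, plus strand): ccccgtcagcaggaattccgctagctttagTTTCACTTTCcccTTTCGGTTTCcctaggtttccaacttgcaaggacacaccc
IFI27 (GRCh38.p14 chr14:94110598-94110680, plus strand): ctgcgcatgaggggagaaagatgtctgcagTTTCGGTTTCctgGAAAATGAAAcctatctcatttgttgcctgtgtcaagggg
IFITM1 (GRCh38.p14 chr11:313970-314069, plus strand): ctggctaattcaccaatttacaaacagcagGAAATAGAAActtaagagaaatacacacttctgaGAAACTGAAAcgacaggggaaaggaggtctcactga
MX1 (GRCh38.p14 chr21:41420539-41420587, plus strand): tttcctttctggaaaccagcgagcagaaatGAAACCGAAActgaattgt
PARP9 (GRCh38.p14 chr3:122564302-122564371, minus strand): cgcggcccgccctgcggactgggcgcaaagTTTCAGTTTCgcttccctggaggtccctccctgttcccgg
DTX3L (GRCh38.p14 chr3:122564302-122564367, plus strand): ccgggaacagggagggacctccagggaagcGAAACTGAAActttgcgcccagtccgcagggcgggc
ISG15 held overlapping matches in 1 run of capitals, while IFIT1, IFI27 and IFITM1 each held 2 matches apart from each other. PARP9 and DTX3L are transcribed in opposite directions from a shared promoter, and the lines printed for them are the 2 strands of the same stretch with 1 and the same match. Of the OAS genes with a promoter in the table, OAS3 held 2 matches and OAS1 held 0. A match describes these letters and is not a measured binding site.

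Library totals ran from 11.2M to 23.6M counts. Levels are given as CPM, counts per 1M counts of a library after TMM scaling (edgeR's trimmed mean normalisation), and 3 counts, taken as the floor of detection, corresponded to 0.118 to 0.275 CPM, which covers counting error only. The B cell markers CD79A and PAX5 were present in every library (439 to 561 and 238 to 344 CPM in Raji wild type), and the 6 T cell markers summed to 2.57 to 8.56 CPM in Raji and 9.15 to 12.2 CPM in Daudi, most of it CD247, with CD2 and CD5 at 0 in all 12. Counts of FBXO11 do not read the edit, since a frameshift can leave the transcript in place, and its change was -0.67 (adjusted p = 0.208) in Raji and 0.44 (adjusted p = 0.646) in Daudi. Raji wild-type replicates 3 and 4 were much closer than other replicates (chi-square per degree of freedom 2.18, against 21.9 to 171 in the other 13 pairs within a group), and Daudi wild-type replicates 1 and 2 formed the farthest pair. Whether replicates came from separate cultures is not stated in the labels, so p-values reflect library-to-library spread that may be technical.

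Interferon-stimulated gene transcripts were abundant in wild-type Daudi and much scarcer in Daudi knockout and in all Raji libraries. Summed over the 42 genes, levels were 16232 and 6841 CPM in Daudi wild type, 1361 and 1035 CPM in Daudi knockout, 681 to 799.6 CPM among Raji wild-type libraries and 443 to 832 CPM in Raji knockout. Each Daudi wild-type library therefore lay above each of the other 10. In bulk RNA, fewer cells with a transcript and less of it per cell cannot be told apart.

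**Figure D1:**
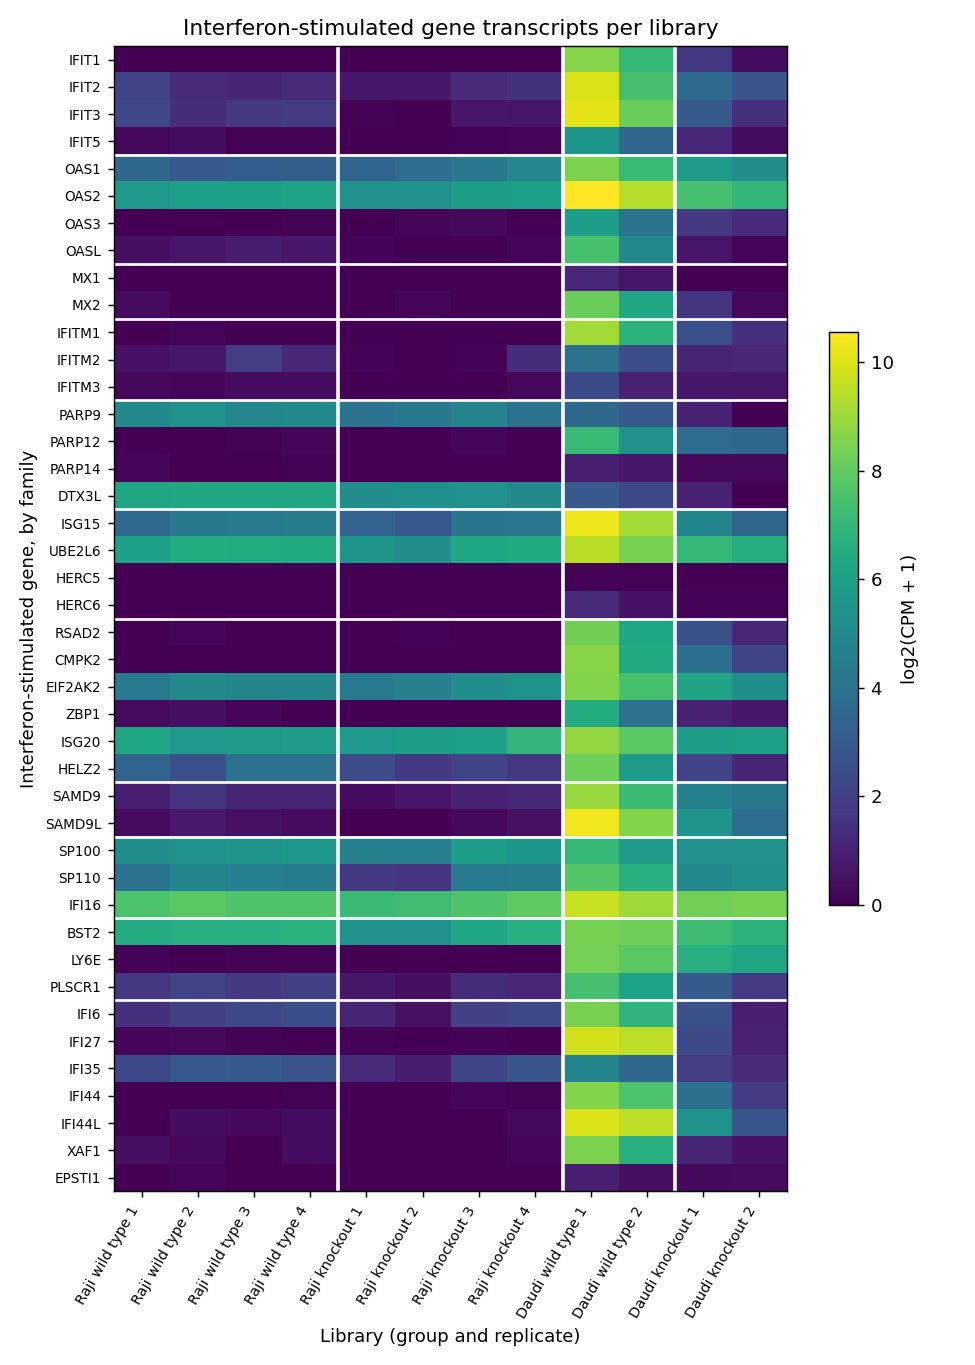
Level of each of the 42 interferon-stimulated genes (rows, grouped by family, white lines between families) in each of the 12 libraries (columns), as colour on a log2(CPM + 1) scale. The 2 Daudi wild-type columns are the brightest for nearly all genes, with MX1, HERC5, HERC6, EPSTI1 and PARP14 dark throughout and PARP9 and DTX3L brighter in Raji.

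In Daudi, 29 of the 39 tested genes fell in knockout (edgeR's quasi-likelihood test, Benjamini-Hochberg adjusted p under 0.05), where 1.82% of all 12027 genes fell. None of the 39 rose, against 0.798% of all genes, and the other 10 did not pass. The log2 change had a median of -4.60 (-4.25 with MX1, absent from the knockout, at its bound), against 0.00 over all genes. It ranged from -8.33 for IFI27 to -1.06 for IFI16, and all 39 were negative. Genes such as MX1, MX2, IFIT1, IFIT5 and PARP14 passed the low-count filter only through Daudi wild type. That filter favoured a lower level in knockout for them, and the counts and the median include such genes. Both knockout libraries lay below both wild-type libraries for all 42 genes, a pattern seen in 19.6% of all genes.

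The number of calls depended on which libraries set the spread. Fitted on the 4 Daudi libraries alone, the test called 2 of 40 genes, XAF1 (adjusted p = 0.0458) and IFI27 (adjusted p = 0.0276). The share of all genes called was not taken for this fit or for those that left out a library. Whether calls were lost more in this set than elsewhere was therefore not tested. Without Daudi wild-type replicate 1 it called 16 genes, without knockout replicate 1 it called 21 and without knockout replicate 2 it called 11. ISG15, IFIT3, MX2, OASL, RSAD2, XAF1, IFI27, IFI44 and IFI44L were called in all 12 fits that left out 1 library, and each of the other 20 lost its call without 1 or more of those 3 libraries.

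The 2 wild-type Daudi libraries themselves differed in this gene set. Of the 39 genes with at least 10 counts in the pair, 39 were higher in replicate 1, by a median of 2.69-fold (range 1.12 to 5.92), where the median over all genes was 1.05-fold and 54.4% of genes were higher. Of 31 such genes in the knockout pair, 26 were higher in replicate 1, by a median of 1.90-fold (range 0.84 to 6.69), against 0.997-fold over all genes. The part of whatever separates these replicates in the knockout difference was not tested.

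IFIT proteins bind the 5′ ends of foreign RNA and restrict its translation, and their 4 genes lie side by side at chr10:89283694-89421001 (GRCh38). All 4 fell in Daudi knockout. IFIT1 stood at 396 and 128 CPM in wild type and at 2.25 and 0.275 CPM in knockout (log2 change -7.69 ± 1.07 SE, adjusted p = 0.0255). IFIT2 was measured at 975 and 172 CPM against 11.2 and 5.81 CPM (log2 change -6.08 ± 0.83 SE, adjusted p = 0.00393). IFIT3, which stabilises IFIT1 in a complex, had 1105 and 289 CPM against 6.86 and 1.77 CPM (log2 change -7.33 ± 0.91 SE, adjusted p = 0.00221). In each of these genes wild-type replicate 1 was well above replicate 2, and both knockout libraries were far below both. IFIT5, the least abundant of the family, had 46.0 and 10.3 CPM against 1.301 and 0.275 CPM (log2 change -5.15 ± 0.91 SE, adjusted p = 0.0123).

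In Raji the IFIT genes were low or not detected. IFIT1 had 0 counts in all 8 Raji libraries. IFIT3 was at 3.70, 1.56, 2.40 and 2.61 CPM in wild type and 0.0446, 0, 0.552 and 0.534 CPM in knockout, without overlap (log2 change -3.20 ± 0.81 SE, adjusted p = 0.0626). IFIT2 (3.40, 1.47, 1.20 and 1.39 CPM in wild type, 0.624, 0.609, 1.41 and 1.92 in knockout) overlapped between the groups.

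OAS enzymes make 2′-5′-linked oligoadenylate on double-stranded RNA, which activates RNase L, while OASL lacks that activity. All 4 family members fell in Daudi knockout. OAS1 was at 354 and 141 CPM in wild type and 52.1 and 35.9 CPM in knockout (log2 change -2.49 ± 0.50 SE, adjusted p = 0.0222). OAS2, the most abundant of the family in every library, went from 1495 and 659 to 171 and 125 CPM (log2 change -2.87 ± 0.36 SE, adjusted p = 0.00236). OAS1 and OAS2 were still well above the floor in knockout, whereas OASL was near it. OASL had 176 and 30.2 CPM in wild type and 0.513 and 0.118 CPM in knockout (log2 change -8.32 ± 0.92 SE, adjusted p = 0.00145). OAS3, between OAS1 and OAS2 at chr12:112906777-113011723, had 57.1 and 15.8 CPM against 2.33 and 1.49 CPM (log2 change -4.25 ± 0.75 SE, adjusted p = 0.0119).

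In Raji, OAS1 and OAS2 were expressed in all libraries and OAS3 in almost none. OAS2 stood at 50.1, 60.8, 62.6 and 67.0 CPM in wild type and 41.7, 41.1, 59.3 and 60.4 CPM in knockout. OAS1 was at 10.6, 6.78, 7.92 and 8.10 CPM in wild type and 9.94, 12.5, 18.2 and 28.4 CPM in knockout (log2 change 1.05 ± 0.35 SE, adjusted p = 0.160). The OAS1 groups overlapped in that knockout replicate 1 lay within the wild-type range, and its direction was opposite to that in Daudi. OASL was at 0.358, 0.550, 0.765 and 0.555 CPM and 0.0892, 0, 0 and 0.107 CPM, with all knockout libraries lower (log2 change -3.21 ± 1.06 SE, adjusted p = 0.148).

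MX1 and MX2, dynamin-like GTPases that restrict viruses, are neighbours at chr21:41361943-41459214, and Daudi used them very unequally. MX2 was at 287 and 80.0 CPM in wild type and 2.09 and 0.157 CPM in knockout (log2 change -7.34 ± 0.99 SE, adjusted p = 0.00350). MX1 had 32 and 10 counts in wild type (1.33 and 0.494 CPM) and 0 counts in both knockout libraries, a drop of at least 16.0-fold against a floor of 3 counts over the group (adjusted p = 0.123). MX1 was thus near the floor in the same libraries in which MX2 was abundant, and both genes had at most 4 counts in any Raji library.

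IFITM proteins sit in membranes and block the fusion of enveloped viruses. IFITM1 fell from 541 and 111 CPM in Daudi wild type to 4.89 and 1.73 CPM in knockout (log2 change -6.62 ± 0.84 SE, adjusted p = 0.00608). IFITM2 had 14.3 and 4.64 CPM against 1.14 and 1.26 CPM and did not pass (log2 change -2.97 ± 1.32 SE, adjusted p = 0.328). IFITM3 had 4.19 and 0.939 CPM against 0.591 and 0.550 CPM and did not pass either (log2 change -2.16 ± 0.93 SE, adjusted p = 0.309). The family was led by IFITM1 in Daudi and was almost silent in Raji, where IFITM1 had 1 count in the 8 libraries together. The 3 genes share sequence at chr11:307631-327537, with 38.9% of the 50-base stretches of IFITM1 found elsewhere, 15.7% of those of IFITM2 and 20.3% of those of IFITM3, so the split of reads among them is uncertain.

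PARP9, PARP12 and PARP14 are ADP-ribosyltransferases or related proteins, and DTX3L is the ubiquitin ligase that pairs with PARP9. PARP12 fell in Daudi from 135 and 40.0 to 11.99 and 10.7 CPM (log2 change -2.95 ± 0.55 SE, adjusted p = 0.0165), and had at most 2 counts in a Raji library. PARP14 stayed low everywhere, with 20 and 12 counts in Daudi wild type and 4 and 4 in knockout (adjusted p = 0.321).

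PARP9 and DTX3L had the reverse order between the lines. In Raji wild type DTX3L was at 72.9, 76.6, 77.0 and 76.5 CPM and in Raji knockout at 35.1, 37.7, 39.2 and 30.2 CPM (log2 change -1.09 ± 0.37 SE, adjusted p = 0.156). DTX3L had 6.72 and 3.95 CPM in Daudi wild type and 0.946 and 0 CPM in knockout (log2 change -3.48 ± 0.68 SE, adjusted p = 0.0197). PARP9 was at 30.7, 41.1, 28.3 and 30.9 CPM in wild-type Raji and 15.3, 18.3, 25.4 and 14.4 CPM in Raji knockout (log2 change -0.83 ± 0.43 SE, adjusted p = 0.379). Knockout was lower without overlap for both genes in both lines. PARP9 had 10.6 and 6.62 CPM in Daudi wild type and 0.986 and 0 CPM in knockout (log2 change -4.11 ± 0.76 SE, adjusted p = 0.0157). In Daudi knockout replicate 2 neither gene of the shared promoter had a single count, which allows up to 0.118 CPM, while replicate 1 had 25 counts of PARP9 and 24 of DTX3L. Both Daudi calls were lost without wild-type replicate 1.

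**Figure D2:**
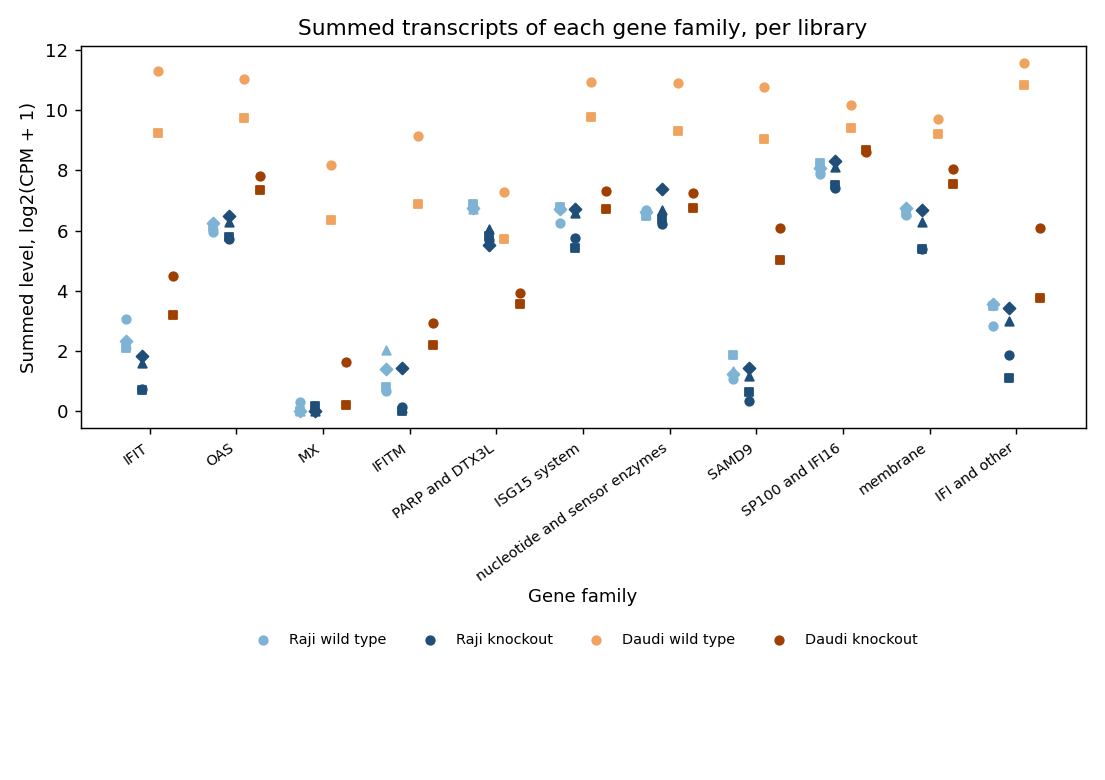
Summed level of each family in each library on a log2(CPM + 1) scale, with light and dark blue for Raji wild type and knockout, and light and dark orange for Daudi wild type and knockout (circle, square, triangle and diamond mark replicates 1 to 4). Daudi wild type is above Daudi knockout in all 11 families, and the PARP and DTX3L family is the one in which Raji wild type (104, 118, 105 and 108 CPM) lies between the 2 Daudi wild-type libraries (154 and 51.2 CPM).

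ISG15 is a ubiquitin-like protein joined to other proteins by UBE2L6 and HERC5. It was the most abundant member per length in Daudi wild type, at 950.3 CPM per kilobase of exon as a group mean, against 18.5 in Raji wild type. ISG15 went from 1252 and 536 CPM in Daudi wild type to 27.9 and 10.1 CPM in knockout (log2 change -5.56 ± 0.66 SE, adjusted p = 0.00186). In Raji it was at 11.1, 18.0, 19.8 and 20.6 CPM in wild type and 8.96, 6.56, 16.1 and 16.6 CPM in knockout, overlapping (log2 change -0.52 ± 0.40 SE, adjusted p = 0.607). UBE2L6, the conjugating enzyme, fell from 707 and 337 to 129.9 and 93.9 CPM in Daudi (log2 change -2.22 ± 0.45 SE, adjusted p = 0.0225). The ligase gene HERC5 had 1 and 1 counts in Daudi wild type and 0 in the other 10 libraries, and its neighbour HERC6 had 35 and 9 counts in Daudi wild type, 2 and 2 in knockout and 0 in Raji. EPSTI1, the third untested gene, had 21 and 7 counts in Daudi wild type and 5 and 6 in knockout. ISG15 and UBE2L6 transcripts were thus abundant in Daudi wild type while the ligase transcript was at the floor.

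Outside these families the largest Daudi changes were in IFI27, XAF1, HELZ2 and IFI6. IFI27, a small mitochondrial membrane protein, was at 906 and 713 CPM in wild type and 4.02 and 0.982 CPM in knockout (log2 change -8.33 ± 0.62 SE, adjusted p = 7.19e-05). XAF1, a pro-apoptotic protein that binds XIAP, was at 355 and 99.6 and 1.14 and 0.432 CPM (log2 change -8.16 ± 0.80 SE, adjusted p = 9.50e-04). In both genes the groups lay far apart, and Raji libraries stood at or near 0. HELZ2, a helicase, was at 298 and 53.7 and 3.35 and 1.18 CPM (log2 change -6.27 ± 0.88 SE, adjusted p = 0.00417). IFI6, which protects the endoplasmic reticulum from viral replication, was at 335 and 114 and 5.20 and 0.825 CPM (log2 change -6.22 ± 1.00 SE, adjusted p = 0.00735). Of XAF1's exonic bases, 38.3% overlap an antisense gene, and the library kit does not mark strand.

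The smallest Daudi changes outside the families were in IFI16, SP100, BST2 and LY6E, which were also well expressed in knockout. IFI16, a DNA sensor, had 809.8 and 527 CPM in wild type and 314 and 328 CPM in knockout (log2 change -1.06 ± 0.26 SE, adjusted p = 0.0583). SP100, a nuclear body protein, had 128 and 55.2 and 39.9 and 41.1 CPM (log2 change -1.18 ± 0.46 SE, adjusted p = 0.247). BST2 (tetherin), which holds budding virions at the surface, had 333 and 298 and 154 and 113 CPM (log2 change -1.24 ± 0.38 SE, adjusted p = 0.121). Of these 4 genes only LY6E, a membrane protein, passed, at 325 and 231 and 99.6 and 72.3 CPM (log2 change -1.69 ± 0.25 SE, adjusted p = 0.0106). LY6E had at most 1 count in any Raji library, so Daudi knockout stayed far above Raji for this gene.

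Among the rest, RSAD2, IFI44, IFI44L, SAMD9, SAMD9L, PLSCR1, ZBP1, EIF2AK2 and ISG20 fell in Daudi knockout, with log2 changes from -6.02 for ZBP1 to -2.38 for EIF2AK2. RSAD2 (viperin) makes a chain-terminating nucleotide, EIF2AK2 (PKR) stops translation on sensing double-stranded RNA, and ZBP1 senses Z-form nucleic acid. CMPK2 (-4.83, adjusted p = 0.0787), which lies beside RSAD2, IFI35 (-3.17, adjusted p = 0.0575) and SP110 (-2.12, adjusted p = 0.287) did not pass. Genes with an ISRE match in their promoter had a median Daudi change of -4.86 (22 genes), and genes without one a median of -2.83 (10 genes), given as a description of overlapping ranges.

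**Figure D3:**
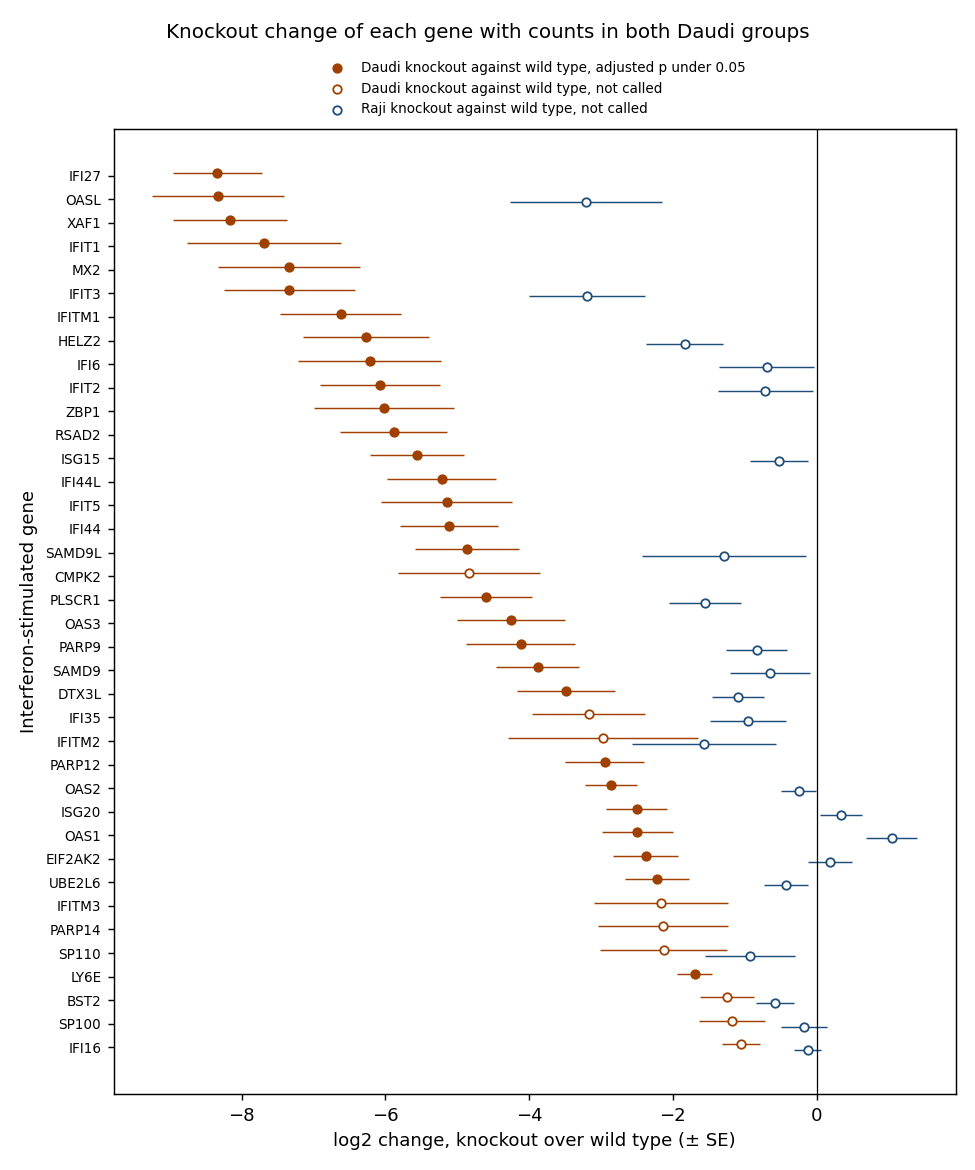
log2 change (knockout over wild type, ± SE) of 38 tested genes in Daudi (orange) and of the 22 genes with more than 3 counts in both Raji groups (blue), with filled points for an adjusted p under 0.05. MX1, absent from Daudi knockout, is left out. All Daudi points lie below 0, from -8.33 to -1.06, and no Raji point is filled.

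In Raji, none of the 39 tested genes was called in either direction by edgeR, where 1.68% of all genes fell and 0.923% rose. Of the 39, 9 had 3 counts or fewer in each Raji group and had passed the low-count filter through Daudi. The lack of a call says nothing about a change in those genes. At an unadjusted p under 0.05 there were 8, DESeq2 called 5 lower, and limma-voom with sample quality weights called 15 lower and 1 higher. No share of all genes was taken at that threshold or for those methods, so these counts cannot be set against one. The median log2 change was -0.83 over the 39 genes, against 0.01 over all genes (-0.88 with genes at 0 at their bound and those at the floor in both groups left out). Of the 22 genes with more than 3 counts in both groups, 19 had a negative change and 3 a positive one (OAS1, ISG20 and EIF2AK2). All 4 knockout libraries lay below all 4 wild-type libraries for IFIT3, OASL, PARP9, DTX3L, HELZ2 and PLSCR1, that is 6 of 42 genes, against 5.99% of all genes.

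Several genes were called lower in Raji by other fits, and limma-voom called OAS1 higher (log2 change 0.71, adjusted p = 0.0432). The 5 that DESeq2 called were DTX3L, HELZ2, IFIT3 (adjusted p = 0.00933), OASL (adjusted p = 0.00820) and PLSCR1 (adjusted p = 0.0202), and limma-voom called these too. Fitted on the 8 Raji libraries alone, edgeR called DTX3L (adjusted p = 0.00266) and HELZ2 (adjusted p = 0.0332), for which DESeq2 gave 0.0116 and 0.00699. Without Daudi knockout replicate 1 or 2 the adjusted p of DTX3L in Raji was 0.00719 or 0.00712, and that of HELZ2 without Daudi wild-type replicate 1 or 2 was 0.0381 or 0.0338. Without the same wild-type replicates IFIT3 (0.0348 or 0.0350) and OASL (0.0379 or 0.0305) also passed, and IFITM2 did without Raji knockout replicate 4 (0.0361). HELZ2 was at 9.67, 5.04, 14.6 and 14.9 CPM in wild-type Raji and 4.50, 2.44, 3.31 and 2.14 CPM in knockout. PLSCR1, a scramblase with antiviral activity, was at 2.15, 3.48, 2.40 and 3.05 CPM and 0.580, 0.338, 1.60 and 1.23 CPM.

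Raji knockout libraries were not alike in these genes. Knockout replicates 1 and 2 had summed levels of 443 and 461 CPM, below every wild-type library, whereas replicates 3 and 4 had 703 and 832 CPM, within and above the wild-type range. SP110, a nuclear body protein, showed this split most plainly, with 15.2, 27.9, 22.5 and 21.3 CPM in wild type and 2.497, 2.10, 19.7 and 21.2 CPM in knockout (log2 change -0.93 ± 0.63 SE, adjusted p = 0.537). BST2 had 87.8, 95.9, 95.7 and 104 CPM in wild type and 40.2, 40.5, 76.1 and 100.1 CPM in knockout (log2 change -0.58 ± 0.26 SE, adjusted p = 0.312). For both genes replicates 1 and 2 were far below wild type and replicates 3 and 4 were not. DTX3L did not follow the split, since all 4 of its knockout values lay close together. Of the exonic bases of SP110, 20.9% overlap an antisense gene.

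**Figure D4:**
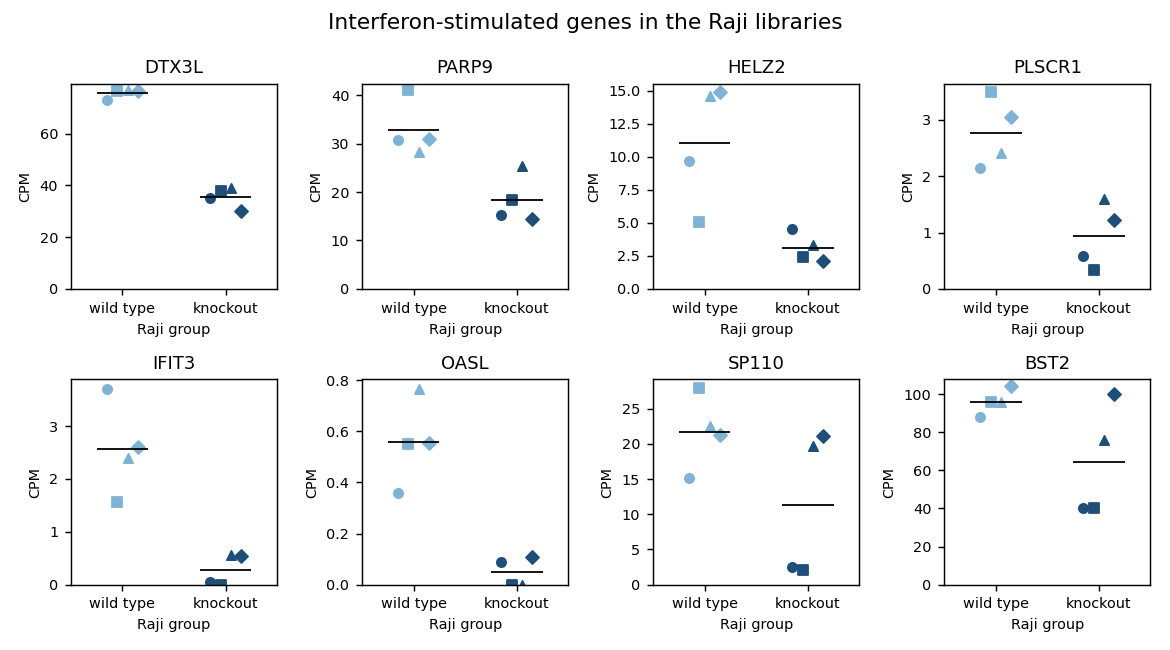
CPM of 8 genes in the Raji libraries (linear axes from 0), with circle, square, triangle and diamond for replicates 1 to 4 and a black line at each group mean. DTX3L, PARP9, HELZ2, PLSCR1, IFIT3 and OASL do not overlap between wild type and knockout, while SP110 and BST2 are low in knockout replicates 1 and 2 (2.497 and 2.10 CPM of SP110) and near wild type in replicates 3 and 4.

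The knockout effect itself was compared between the lines. It was more negative in Daudi for ISG15, ISG20, IFI6, IFIT2, OAS1 and OAS2, 6 of 39 genes, against 0.474% of all genes, and more positive for none, against 0.299% of all genes. ISG15 had the smallest p, with a difference of -5.03 ± 0.72 on the log2 scale (adjusted p = 0.00923). All 6 calls were lost without Daudi knockout replicate 2 and 4 without Daudi wild-type replicate 1, and the count was 1 with Raji wild-type replicates 3 and 4 summed, 17 with DESeq2 and 13 with limma-voom. No share of all genes was taken for these other fits, so their counts have no background here. The median difference of -3.32 includes fitted values of genes with few or no Raji counts and is no bound.

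Wild-type Daudi and wild-type Raji differed in every tested gene of the set. Daudi was higher for 37 of the 39, against 24.8% of all genes, and lower for PARP9 (-1.92 ± 0.57, adjusted p = 0.0165) and DTX3L (-3.82 ± 0.55, adjusted p = 1.84e-04), against 20.3% of all genes. The median log2 difference was 7.15 (6.04 with genes at 0 in Raji at their bound, and 4.89 over the 29 genes with more than 3 counts in both groups), against 0.07 over all genes. The genes outside those 29 had 3 counts or fewer in the Raji wild-type group and passed the low-count filter through Daudi, so their higher level in Daudi follows from that filter. Of the 29 genes, 27 were higher in Daudi and 2 lower. Among those 29 genes, the PARP9 call was lost without Daudi wild-type replicate 2, and those of IFI35, IFITM2, IFITM3, SP100 and SP110 each without 1 or more other libraries, Daudi wild-type replicate 1 among them. Since each line is 1 cell line, the line and its culture cannot be told apart.

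Daudi knockout was also compared with Raji knockout. It was higher for 25 of the 39, against 22.5% of all genes, and lower for PARP9 and DTX3L, against 19.7% of all genes. The median log2 difference was 2.89 (2.64 with genes at 0 in Raji at their bound, and 1.06 over the 23 genes with more than 3 counts in both groups). Among those 23 genes 12 were called in either direction, PARP9 and DTX3L among them. The other genes called had 3 counts or fewer in the Raji knockout group and passed the low-count filter through Daudi, where wild-type libraries also count towards it. MX1 passed in that way with 0 counts in both knockout groups, so the filter alone did not set the direction here. How far it favoured a higher level in Daudi knockout was not tested. Without Daudi knockout replicate 1 the number called in either direction was 17 in place of 27. Compared library by library with Raji wild type, Daudi knockout was above for 26 of the 42 genes, below for IFI35, PARP9, DTX3L and HELZ2 and overlapping for 12, where 35.1% of all genes tested were above and 29.3% below. LY6E gave the clearest excess, at 99.6 and 72.3 CPM in Daudi knockout against at most 0.0597 CPM in Raji wild type. These comparisons share libraries with those within each line.

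Genes that make and carry the interferon signal were read from a list of 46 in the table, 37 of them tested. In Daudi knockout 8 fell, against 1.82% of all genes, 0 rose and 29 did not pass, with a median log2 change of -0.75, and in Raji knockout edgeR called 0. All 8 Daudi calls were lost when the 4 Daudi libraries were fitted alone, with adjusted p from 0.0728 for IFIH1 to 0.265 for STAT2. Other fits were read for part of the list only. In Raji knockout limma-voom called ADAR (log2 change 0.49, adjusted p = 0.00688), STAT2, IFNAR1 and IFNAR2 higher and TREX1 lower (-0.82, adjusted p = 0.00637), and DESeq2 called IFNAR1 higher. Among the ligands only IFNB1, interferon beta, was tested, with 2.57 and 0.741 CPM in Daudi wild type and 0.118 and 0.0786 CPM in knockout (log2 change -3.99 ± 0.99 SE, adjusted p = 0.0806). IFNA1, IFNA2 and IFNK had 0 counts in every library, and IFNB1 had 1 count in the 8 Raji libraries together.

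Of the receptors and kinases, 0 of 9 were called in Daudi. IFNAR1 was at 43.8 and 42.7 CPM in Daudi wild type and 66.7 and 56.4 CPM in knockout (log2 change 0.51 ± 0.22 SE, adjusted p = 0.298). IFNAR2 was at 26.1 and 26.3 CPM and 61.7 and 52.4 CPM (log2 change 1.12 ± 0.27 SE, adjusted p = 0.0515). The values of both receptor genes were higher in both knockout libraries than in both wild-type libraries, though neither gene passed. The share of all genes with this pattern was not taken, and 19.6% of all genes had the reverse, both knockout libraries lower. In Raji knockout IFNAR1 was called higher by DESeq2 (log2 change 0.56, adjusted p = 0.0154) and limma-voom (0.73, adjusted p = 6.51e-04). IFNAR2 was called higher there by limma-voom (0.45, adjusted p = 0.0213).

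Of 9 transcription factor genes, 3 fell in Daudi knockout, the ISGF3 genes STAT2 and IRF9, and IRF1. STAT2 was at 975 and 189 CPM in wild type and 113 and 100.1 CPM in knockout (log2 change -2.45 ± 0.58 SE, adjusted p = 0.0482). IRF9 was at 279 and 64.9 and 22.9 and 13.9 CPM (log2 change -3.23 ± 0.54 SE, adjusted p = 0.00951). For STAT2 and IRF9 the groups did not overlap and wild-type replicate 1 was well above replicate 2, as in the interferon-stimulated genes. The STAT2 call was lost in 10 of 12 fits that left out 1 library and that of IRF9 without either knockout library. IRF1 changed by -2.11 (adjusted p = 0.0279), a call lost in 4 of those fits. IRF7, which amplifies interferon production, was nearly absent from Daudi, with 1 count in the 4 libraries together, and was at 8.82 to 15.3 CPM in wild-type Raji and 5.03 to 8.12 CPM in Raji knockout.

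Of 10 tested sensor and adaptor genes 3 fell in Daudi knockout, IFIH1, DDX58 and DHX58, and 7 did not pass, among them the RNA sensors TLR3 (-1.54, adjusted p = 0.666) and TLR7 (-2.30, adjusted p = 0.108). IFIH1 (MDA5) fell from 204 and 56.7 to 6.94 and 5.34 CPM in Daudi knockout (log2 change -4.41 ± 0.49 SE, adjusted p = 0.00145), and was called in all 12 fits that left out 1 library, though not in Daudi alone. DDX58 (RIG-I) fell from 92.2 and 25.8 to 4.81 and 2.36 CPM (log2 change -4.04 ± 0.56 SE, adjusted p = 0.00411). Daudi knockout was lower than Raji knockout for IFIH1 (53.6, 48.0, 47.4 and 36.2 CPM in Raji knockout, difference -2.91, adjusted p = 2.64e-04), and DDX58 was at 3.52, 2.77, 3.44 and 2.94 CPM there. DHX58 (LGP2, -3.89), TREX1, which degrades cytosolic DNA (-2.12), and ADAR, which edits double-stranded RNA (-1.34), also fell, TREX1 and ADAR as 2 of 8 tested negative regulators, and each of these calls was lost without 1 or more of Daudi wild-type replicate 1 and the knockout libraries. USP18, an interferon-stimulated brake on the receptor, was at 0.332 and 0.0494 CPM in Daudi wild type.

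**Figure D5:**
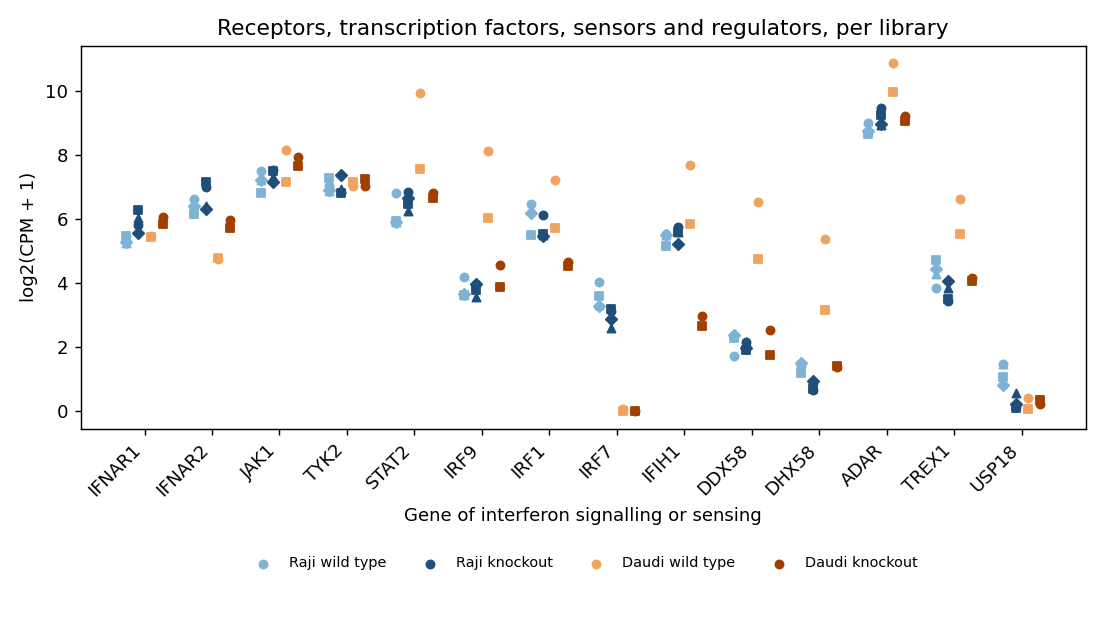
Levels of 14 genes of interferon signalling and sensing in each library on a log2(CPM + 1) scale, with light and dark blue for Raji wild type and knockout and light and dark orange for Daudi wild type and knockout (marker shapes are replicates). STAT2, IRF9, IFIH1, DDX58, DHX58, ADAR and TREX1 are highest in Daudi wild type, JAK1 and TYK2 overlap between the Daudi groups, and IRF7 and USP18 are at or near the bottom in Daudi.

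Markers of other cell types were read beside these results. The 8 myeloid markers summed to 34.2 to 72.3 CPM in Daudi wild type and 16.7 to 22.6 CPM in knockout, of which 5 were tested and 0 called, with S100A8 and S100A9 at 0 in all 4 Daudi libraries. The 5 plasmacytoid dendritic cell markers summed to 0.198 to 0.498 CPM in Daudi wild type and 0.118 to 0.904 CPM in knockout. The 6 T cell markers summed to 9.66 to 12.2 and 9.15 to 9.47 CPM, with CD3D, CD2 and CD5 at 0, and the 6 fibroblast and epithelial markers to 0.198 to 0.871 and 0.158 to 0.471 CPM. The B cell markers summed to 2675 to 3461 CPM in Daudi wild type and 2071 to 2373 CPM in knockout, with 1 of 7 called (MS4A1, -1.14, adjusted p = 0.0357). The part of the myeloid difference in the fall of the interferon-stimulated genes was not tested.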

How the data were processed

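Per the labels' protocols, DNase-treated total RNA went into a TruSeq v2 kit, which takes polyadenylated RNA and does not mark strand. The authors deposited a single table of whole-number, unnormalised counts for the 12 libraries. STAR 2.5.0, RSEM 1.3.0 and hg38 appear in the submitters' processing notes without a role, and no source here says whether RSEM estimates were rounded. Groups came from the cell line and genotype in the labels, and replicate numbers are names only.

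The counts were analysed with edgeR 4.0.16 in R 4.3.3: default low-count filter over the 4 groups, TMM scaling, and a robust quasi-likelihood fit of all 12 libraries (8 residual degrees of freedom), since Daudi has 2 libraries a group. Benjamini-Hochberg adjustment ran over all 12027 genes, with an adjusted p under 0.05 called. Each SE was worked back from the test, as the absolute log2 change divided by the square root of its F statistic, and is approximate. The model was also run on simulated counts that gave each gene the same spread in all groups. That run cannot test calls where the spread differs between the lines. Here the pooled SD of the libraries' mean log2 level was 0.80 for the Daudi knockout comparison and 0.19 for the Raji one. Alternatives were DESeq2 1.42.0, limma 3.58.1 voom with sample quality weights, other size factors, other filters, fits of the compared groups alone, each library left out and Raji wild-type replicates 3 and 4 summed. Folds written "at least" put 3 counts in place of a group total of 0. Lengths and overlaps came from GENCODE release 29 (GRCh38), promoters from RefSeq.

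The 42 genes and the other lists were chosen with earlier results of these data known. Named genes are all members of the 5 families, those called in Raji or in the difference between lines, the 4 largest and 4 smallest Daudi changes outside the families, the genes not tested, and of the pathway list those called (8) with STAT2, IRF9, IRF7, IFNAR1 and IFNAR2. Further genes (IFNB1, USP18, SP110, PLSCR1, TLR3, TLR7 and others) were named after their values were seen. Of the pathway list 1 gene, and of the B cell markers 1, are not reported here and were left out of those lists' counts.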

Additional observations from a re-analysis of the deposited data

Results flagged for a closer look

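In groups of 4 libraries, 38 sets of values with a mean of at least 10 counts were searched for a library apart from the other 3 (Dixon's ratio above its 95% critical value), which chance gives in about 5% of sets, and 3 were found. ISG20 was at 122 CPM in Raji knockout replicate 4, against 49.8 to 61.8 CPM in the other 3. IFIT2 was at 3.40 CPM in Raji wild-type replicate 1, against 1.20 to 1.47 CPM. DTX3L was at 72.9 CPM in the same library, against 76.5 to 77.0 CPM, a small gap beside its distance from the knockout libraries.

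The knockout effect differed between Daudi and Raji in edgeR's test of the difference for 6 genes, always more negative in Daudi. The difference on the log2 scale was -5.03 for ISG15 (adjusted p = 0.00923), -5.52 for IFI6 (adjusted p = 0.0483) and -5.37 for IFIT2 (adjusted p = 0.0346). It was -3.54 for OAS1 (adjusted p = 0.0254), -2.84 for ISG20 (adjusted p = 0.0322) and -2.62 for OAS2 (adjusted p = 0.0189). Each of these 6 calls was lost in at least 1 fit that left out a library, and all 6 without Daudi knockout replicate 2.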

How the results depend on the processing

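No paired analysis was possible because the labels give the groups no shared replicate numbers. Shares of all genes called were taken for the edgeR fit of all 12 libraries only, so the counts of other fits have none beside them. The count of genes called in Daudi knockout (29) was 2 with the Daudi libraries alone and 11 to 32 when each library was left out, and the median of -4.60 was -6.05 to -3.49. The count in Raji knockout (0) was 5 with DESeq2, 16 with limma-voom, 2 with the Raji libraries alone and 0 to 3 when each library was left out. The Raji median of -0.83 was -1.02 with limma-voom and -1.02 to -0.56 over the left-out libraries. For the difference between lines the count of 6 was 17 with DESeq2, 13 with limma-voom, 1 with Raji wild-type replicates 3 and 4 summed and 0 to 13 over the left-out libraries, with medians from -5.16 to -2.36. The median difference of the wild-type lines was 6.29 with DESeq2, 5.58 with limma-voom and 5.40 to 7.67 over the left-out libraries. Between the knockouts it was 3.30 with limma-voom, 2.02 with the knockout libraries alone and 2.24 to 4.23 over the left-out libraries, with 17 to 31 genes called.

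The sign of the following values turned. With limma-voom the Raji change of EIF2AK2 was -0.11, the difference between lines was 0.40 for SP110 and 1.56 for IFITM2, and the difference between knockouts was 0.37 for IFI35 and 0.030 for ISG20. With Raji wild-type replicates 3 and 4 summed the Raji change of IRF9 was -0.017. Over the left-out libraries the Raji change ran from -0.022 to 0.23 for IRF9, -0.45 to 0.00055 for SP100 and -0.028 to 0.49 for ISG20, and the difference between lines ran from -2.18 to 1.43 for IFITM2. The difference between knockouts ran from -0.065 to 0.37 for SP100, -0.99 to 0.11 for IFI35, -0.41 to 0.10 for ISG20, -1.35 to 1.303 for IFI6, -0.26 to 1.21 for ISG15 and -1.40 to 0.10 for HELZ2. The cause of these changes was not tested. Where a left-out library leaves 1 in a Daudi group, that library is assumed to vary like the other groups, and genes at the floor in Raji limit every fold against that line.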
